A study of Mus musculus with 12 samples.

Results

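The interleukin-6 family is a group of cytokines that share the signalling receptor gp130, and 10 of its genes were examined here: the ligands *Il6*, *Osm*, *Lif*, *Il11* and *Clcf1*, the shared receptor *Il6st*, and the ligand-binding receptors *Il6ra*, *Osmr*, *Lifr* and *Il11ra1*. They were taken by gene symbol from a table of 52550 genes, of which 15885 protein-coding genes, including all 10, had enough counts to be tested. Whole lungs of C57Bl/6J mice were profiled by bulk RNA sequencing at postnatal day 5, each library coming from 1 mouse, and the 12 mice formed 4 groups of 3. Wild-type (WT, Adm+/+) mice received PBS or LPS, and so did Adm+/- mice, which carry 1 functional copy of the gene for adrenomedullin, a vasodilating and angiogenic peptide. LPS, bacterial lipopolysaccharide from *Escherichia coli* O55:B5, was injected into the peritoneum at 6 mg/kg once a day from day 3 to day 5, 3 doses in all, and tissue was collected 6 h later. The deletion is present in every cell, because the Adm+/- line is a germline heterozygote, backcrossed from 129/SvEv to C57Bl/6J; homozygous loss is lethal before birth. The labels do not say whether littermates were shared, so that p-values measure the spread between these lungs. The design asks how the neonatal lung answers LPS in each genotype and whether reduced adrenomedullin changes that answer.

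Each cytokine of the family binds its own receptor chain and recruits gp130, the product of *Il6st*, which activates the kinases Jak1 and Jak2 and the transcription factor Stat3. Interleukin-6 uses *Il6ra*, interleukin-11 uses *Il11ra1*, leukemia inhibitory factor (*Lif*) uses *Lifr*, and oncostatin M (*Osm*) in mice signals mainly through *Osmr*. Cardiotrophin-like cytokine factor 1 (*Clcf1*) acts through *Cntfr* and *Lifr*. In lung the pathway is known for the acute phase response, and oncostatin M comes largely from neutrophils and macrophages.

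The promoters of *Il6*, *Osmr* and *Il11*, whose responses stand out in the data, are given here as the 300 bases from 250 before to 50 after a RefSeq start (GRCm38.p6), each written 5′ to 3′ on the strand of the gene. Capitals mark matches on either strand to 4 short motifs known from genes of inflammation: the STAT motif TTCNNNGAA, the AP-1 motif TGANTCA, the C/EBP motif TTGCNNAA and the kappa B motif of NF-kappa B.
Il6 promoter, chr5:30012864-30013163, plus strand: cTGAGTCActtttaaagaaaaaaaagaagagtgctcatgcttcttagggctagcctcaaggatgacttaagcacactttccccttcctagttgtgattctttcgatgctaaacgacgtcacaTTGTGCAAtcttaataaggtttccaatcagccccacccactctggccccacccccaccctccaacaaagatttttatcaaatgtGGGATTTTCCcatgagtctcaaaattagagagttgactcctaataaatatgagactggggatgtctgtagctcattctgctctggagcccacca
Osmr promoter, chr15:6874264-6874563, minus strand: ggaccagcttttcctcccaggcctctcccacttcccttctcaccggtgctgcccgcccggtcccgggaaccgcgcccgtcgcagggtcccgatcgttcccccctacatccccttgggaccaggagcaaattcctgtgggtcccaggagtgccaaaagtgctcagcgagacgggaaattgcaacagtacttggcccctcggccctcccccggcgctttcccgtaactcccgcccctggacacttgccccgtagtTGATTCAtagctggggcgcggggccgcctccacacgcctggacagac
Il11 promoter at the second of its RefSeq starts, chr7:4778092-4778391, minus strand: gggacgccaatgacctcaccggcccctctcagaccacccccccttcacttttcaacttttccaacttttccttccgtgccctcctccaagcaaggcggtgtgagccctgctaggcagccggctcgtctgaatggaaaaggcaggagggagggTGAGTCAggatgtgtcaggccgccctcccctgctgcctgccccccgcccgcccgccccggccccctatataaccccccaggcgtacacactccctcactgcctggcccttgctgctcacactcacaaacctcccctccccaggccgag

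The *Il6* promoter held an AP-1 match (TGAGTCA) from base -249, a C/EBP match (TTGTGCAA, on the other strand) from base -128 and a kappa B match (GGGATTTTCC) from base -44, counted from the start site. The *Osmr* and *Il11* windows each held an AP-1 match, from base 4 and base -98, whereas the window at the first *Il11* start held no match of any motif. *Lif* also held an AP-1 match, from base -228, and no match of any of the 4 motifs was found in the windows of *Il6ra*, *Il6st*, *Lifr* and *Il11ra1*. Among 32851 promoters of the same length, 7.81% held the AP-1 motif, 8.3% the STAT motif, 10.8% the C/EBP motif and 4.51% the kappa B motif. The promoters of 8 of the 10 genes were in the table, and those of *Osm* and *Clcf1* were not analysed here. These matches describe the letters of the windows only.

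The libraries held 22382535 to 38062873 counts. WT PBS replicate 5 and Adm+/- PBS replicate 6 stood apart, with 77.8% and 80.1% of their counts assigned to protein-coding genes, where the remaining libraries had 84.3% to 87.6%. Levels are given as CPM, read counts scaled to a common library total with TMM correction for composition. The *Adm* transcript itself overlapped between genotypes. It stood at 3.96 to 7.09 CPM in WT PBS and 2.87 to 4.58 CPM in Adm+/- PBS. After LPS it stood at 4.46 to 8.15 CPM in WT and 3.74 to 6.28 CPM in Adm+/- lungs. The log2 differences, Adm+/- against WT, were -0.50 in PBS (SE 0.32) and -0.55 in LPS (SE 0.31). Both estimates were toward lower *Adm*, and neither was significant (adjusted p = 0.999 and 0.480 in edgeR). The authors established the genotype by genotyping and by RT-PCR of *Adm* in lung. In the count tests of edgeR, a gene was called past the threshold at an adjusted p-value below 0.05 over all genes tested and an absolute log2 fold change above 0.5. The lung is a mixture of cells, and in such bulk samples a change in the number of cells of a type and a change in RNA per cell cannot be told apart. Markers of alveolar type II cells were high in every library (*Sftpc* 7628 to 11605 CPM). LPS libraries of both genotypes carried more neutrophil marker RNA. The summed level of 9 neutrophil markers was 36.8 to 158.7 CPM in WT PBS, 1421 to 2387 CPM in WT LPS, 33.99 to 55.2 CPM in Adm+/- PBS and 1429 to 1696 CPM in Adm+/- LPS. The WT LPS libraries also carried RNA typical of skeletal muscle, with 7 markers summing to 324.8 to 1086 CPM against 5.68 to 13.6 CPM in WT PBS, 5.10 to 7.97 CPM in Adm+/- PBS and 11.7 to 24.5 CPM in Adm+/- LPS.

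Per kilobase of exon, *Il6st* and *Lifr* were the most abundant transcripts of the family in control lungs. In WT PBS lungs *Il6st* stood at 28.8 ± 7.73 CPM per kb (SD, n = 3) and *Lifr* at 25.4 ± 5.04, a difference within their spread. *Il11ra1* followed at 10.1 ± 4.71, then *Osmr* at 5.06 ± 4.92, *Clcf1* at 4.99 ± 0.676 and *Il6ra* at 4.81 ± 0.0815 CPM per kb, and none of these neighbours differed beyond their spread. The ligands *Lif* (0.532 ± 0.161) and *Osm* (0.359 ± 0.317) were lower still, and *Il11* (0.0581 ± 0.0247) and *Il6* (0.0440 ± 0.0597) were near the limit of detection. After LPS the order changed. In Adm+/- LPS lungs *Il6st* led at 78.9 ± 3.99 CPM per kb, followed by *Osmr* at 27.7 ± 1.94 and *Lifr* at 26.8 ± 1.55, which did not differ beyond their spread, and then by *Il6ra* at 10.2 ± 1.48. In WT LPS lungs *Il6st* stood at 47.9 ± 12.1, *Lifr* at 27.0 ± 1.15, *Il6ra* at 13.1 ± 2.71 and *Osmr* at 12.9 ± 5.90 CPM per kb.

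**Figure D1:**
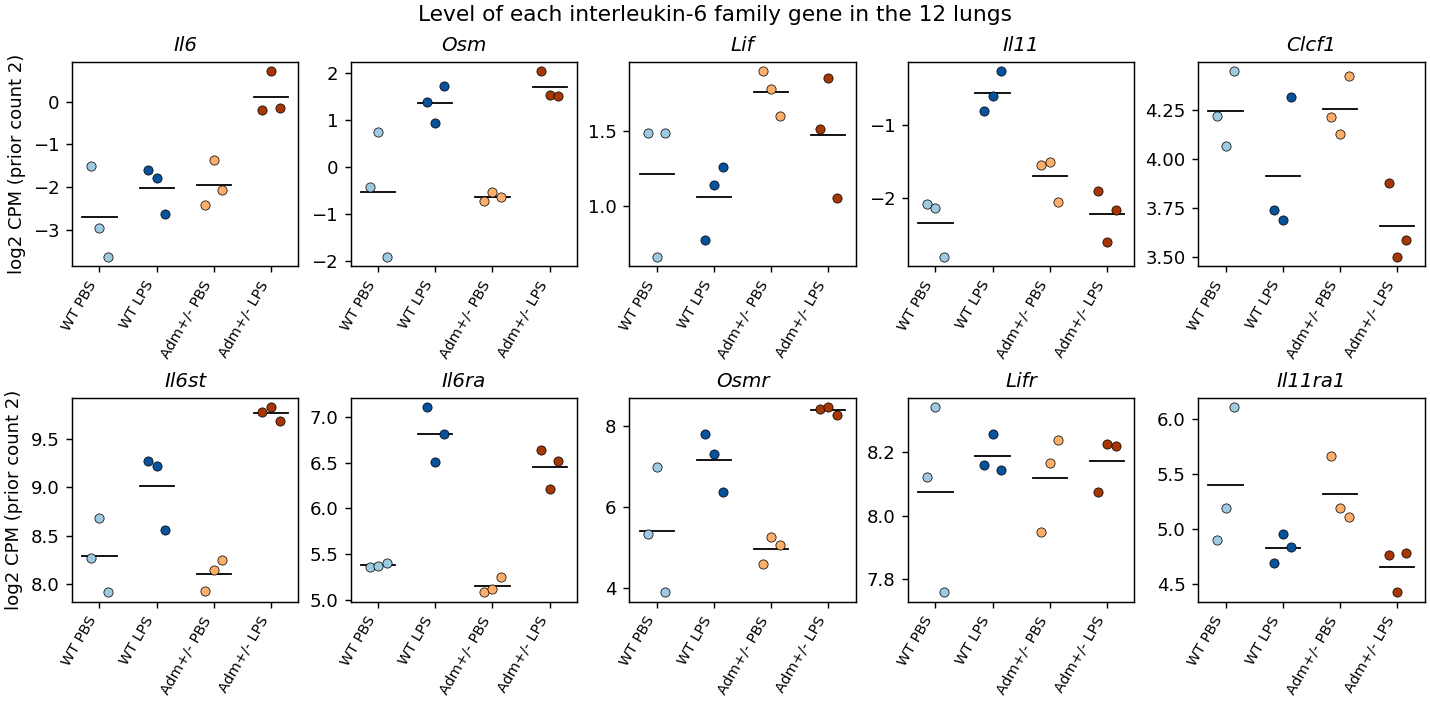
Level of the 10 family genes in each of the 12 lungs, as log2 CPM with a prior count of 2 (vertical axes, scaled separately for each gene), by group; points are single mice and bars are group means. *Il6ra* is higher in all LPS lungs than in all PBS lungs, *Il6* is highest in the 3 Adm+/- LPS lungs, and *Il11* is highest in the 3 WT LPS lungs.

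In WT mice, LPS was followed by a rise of 4 of the 10 genes, *Il11*, *Osm*, *Il6ra* and *Il6st*, and none fell (the background is 10.5% of all tested genes higher and 7.09% lower). In Adm+/- mice 5 genes rose, *Osmr*, *Osm*, *Il6*, *Il6st* and *Il6ra*, and *Clcf1* fell (background 12.8% higher and 12.2% lower). The 3 lungs of each group did not overlap for 3 of the 10 genes in WT lungs and for 7 of 10 in Adm+/- lungs, against 36.2% and 53.7% of all tested genes. The median log2 fold change of the 10 genes was 0.64 in WT and 0.68 in Adm+/- lungs, against 0.01 and -0.01 for all genes tested. Both *Il6* and *Il11* passed the filter on low counts (about 0.407 CPM in at least 3 libraries) only through the group in which they were highest, Adm+/- LPS and WT LPS, and their calls were the same with no such filter.

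**Figure D2:**
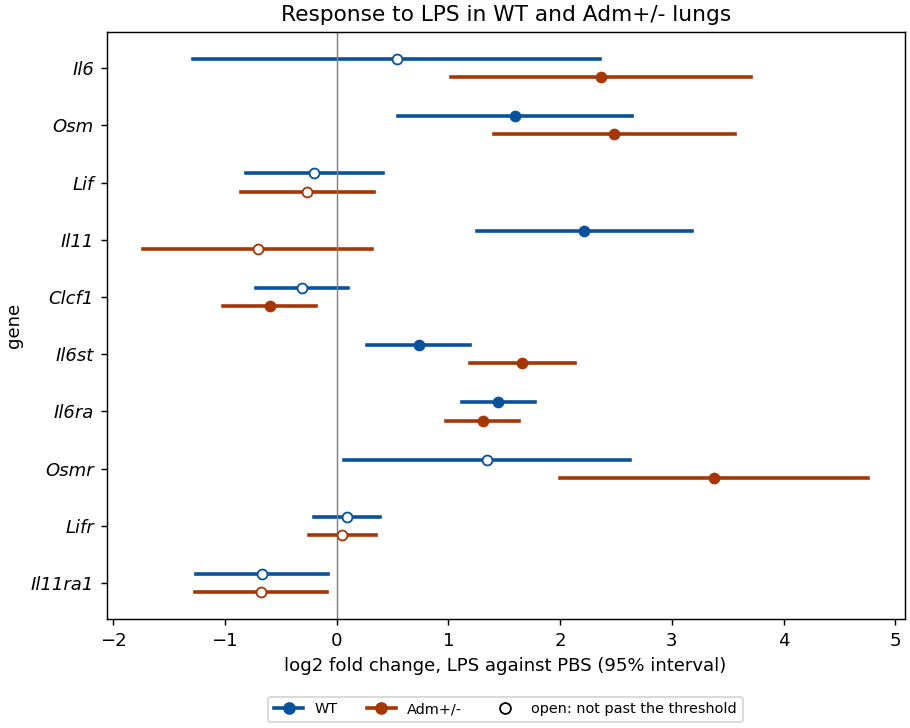
Log2 fold change of LPS against PBS (horizontal axis) with its 95% interval for each family gene, in WT (blue) and Adm+/- (brown) lungs; filled points passed the threshold and open points did not. *Il6ra* lies at 1.45 in WT and 1.31 in Adm+/-, *Osmr* lies at 1.35 in WT and 3.38 in Adm+/-, and *Il11* lies on opposite sides of 0.

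*Il6* encodes the founding cytokine of the family, an inducer of the acute phase response. Its reads were scarce in WT lungs, at 7, 1 and 0 counts in the PBS libraries (0.272, 0.0485 and 0 CPM) and 8, 5 and 2 counts in the LPS libraries (0.247, 0.208 and 0.0796 CPM). Adm+/- PBS lungs gave 0.105, 0.304 and 0.159 CPM, from 2, 9 and 4 counts. Adm+/- LPS lungs gave 0.785, 1.55 and 0.819 CPM, from 21, 37 and 23 counts, and each of these exceeded every other library. The log2 fold change after LPS was 2.36 (SE 0.61, adjusted p = 0.0132) in Adm+/- lungs, a 5.15-fold rise, and 0.54 (SE 0.83, adjusted p = 0.667) in WT lungs. The call in Adm+/- lungs was lost without Adm+/- PBS replicate 6, Adm+/- PBS replicate 8 or Adm+/- LPS replicate 2 (adjusted p = 0.0548, 0.0561 and 0.0602). It was also lost in limma-voom when tested against a minimum log2 change of 0.5 (adjusted p = 0.0654). Counts this low leave the WT response poorly measured: its 95% interval runs from -1.28 to 2.36, and without WT PBS replicate 3, which held 7 of the 8 counts of its group, the estimate became 2.54.

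*Osm* encodes oncostatin M. It read 0.660, 1.602 and 0.185 CPM in WT PBS lungs and 2.53, 1.83 and 3.23 CPM in WT LPS lungs, so that the highest control lay just under the lowest LPS lung. In Adm+/- mice it read 0.526, 0.608 and 0.557 CPM after PBS and 4.002, 2.81 and 2.78 CPM after LPS, with a wide gap between the groups. The rise of *Osm* was 1.597 log2 units in WT lungs (SE 0.48, adjusted p = 0.0357) and 2.49 in Adm+/- lungs (SE 0.49, adjusted p = 0.00306). The WT call was lost in 8 of the 12 leave-one-library-out fits, with estimates from 1.18 without WT PBS replicate 5 to 2.46 without WT PBS replicate 4, whereas the Adm+/- call held in all 12. Across the 12 libraries the genes whose log2 CPM was most like that of *Osm* were *Lilrb4a* and the neutrophil chemokine receptor *Cxcr2* (Pearson's r = 0.973 for each, among 14593 genes compared), a description over libraries that share the treatment. Neutrophil markers moved with *Osm*, 9 of 9 higher after LPS in both genotypes, and WT PBS replicate 4, the control with the most *Osm*, also had the highest neutrophil sum of the controls (158.7 CPM). Their part in the result was not tested.

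*Il11* encodes interleukin-11, a cytokine of stromal and epithelial cells. Its reads were few in every library: 4, 3 and 1 counts in WT PBS, 16, 14 and 19 in WT LPS, 5, 8 and 4 in Adm+/- PBS, and 5, 2 and 4 in Adm+/- LPS. As levels these were 0.155, 0.146 and 0.0618 CPM, 0.493, 0.582 and 0.757 CPM, 0.263, 0.270 and 0.159 CPM, and 0.187, 0.0838 and 0.143 CPM. The 3 WT LPS lungs were above the other 9, and the Adm+/- LPS lungs were within or below the range of their controls. The rise of *Il11* was 2.22 log2 units in WT lungs (SE 0.44, adjusted p = 0.0055), a 4.65-fold rise called in all 12 leave-one-library-out fits. In Adm+/- mice the change was -0.71 (SE 0.47, adjusted p = 0.320). The skeletal muscle markers also differed between the groups, with 7 of 7 higher after LPS in WT lungs and 1 of 7 in Adm+/- lungs. Their sums were 1086, 979.6 and 324.8 CPM in WT LPS replicates 9, 10 and 11, a falling order where *Il11* had a rising one. Markers of squamous epithelium stood highest in WT LPS replicates 9 and 11, where 9 genes summed to 2823 and 1465 CPM. In WT LPS replicate 10 they summed to 27.4 CPM, within the 7.30 to 41.2 CPM of Adm+/- LPS. The PBS lungs were lower, at 4.37 to 6.86 CPM in WT and 4.21 to 4.58 CPM in Adm+/- mice. *Ckm*, which defines muscle, was at 73.6, 56.2 and 23.7 CPM in WT LPS replicates 9, 10 and 11, and at 5.42 to 6.02 CPM in Adm+/- LPS. The part of tissue other than lung in the *Il11* values was not tested.

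*Lif*, which encodes leukemia inhibitory factor, did not pass the threshold in either genotype. It read 2.72, 1.50 and 2.72 CPM in WT PBS and 1.63, 2.12 and 2.31 CPM in WT LPS, and 3.63, 3.35 and 2.94 CPM in Adm+/- PBS and 2.77, 3.52 and 1.995 CPM in Adm+/- LPS. The groups overlapped in both genotypes, and the log2 fold changes were -0.20 (95% interval -0.81 to 0.42, adjusted p = 0.636) and -0.26 (-0.85 to 0.33, adjusted p = 0.501). *Lif* and *Osm* lie near each other on chromosome 11, at 4257557 to 4272514 and 4236420 to 4241026 of mm10 on the same strand.

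*Clcf1* was the member that fell, in Adm+/- lungs. It read 18.6, 16.6 and 21.7 CPM in WT PBS, 13.3, 12.8 and 19.9 CPM in WT LPS, 18.5, 17.4 and 21.4 CPM in Adm+/- PBS, and 14.6, 11.2 and 11.9 CPM in Adm+/- LPS. The fall was -0.60 log2 units in Adm+/- lungs (SE 0.19, adjusted p = 0.0327), where the groups did not overlap, and the value in WT lungs was -0.31 (SE 0.19, adjusted p = 0.254) with overlapping groups. The Adm+/- call was lost without Adm+/- PBS replicate 6 or 8 or Adm+/- LPS replicate 2 or 12. It was also lost in limma-voom when tested against a minimum log2 change of 0.5. Without WT LPS replicate 11 the WT value became -0.54 and was called. *Clcf1* overlaps another annotated protein-coding gene, AC109138.7, on its strand (chr19:4214238-4223490), so that its counts are uncertain.

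*Il6st*, the gene of gp130, was the most abundant member after LPS in both genotypes. It read 307.4, 410.7 and 240.4 CPM in WT PBS and 620.5, 597.5 and 376.9 CPM in WT LPS, so that the lowest LPS lung lay under the highest control. In Adm+/- mice it read 243.5, 281.7 and 304.0 CPM after PBS and 884.4, 914.7 and 827.5 CPM after LPS, with no overlap and with every LPS lung above all WT LPS lungs. The log2 fold change was 0.73 in WT lungs (SE 0.21, adjusted p = 0.0291) and 1.66 in Adm+/- lungs (SE 0.21, adjusted p = 0.000248), or 1.66-fold and 3.17-fold. The WT call was lost without WT PBS replicate 3, WT PBS replicate 5, WT LPS replicate 9 or WT LPS replicate 10, with estimates of 0.71, 0.56, 0.60 and 0.64, and the Adm+/- call held in all 12 such fits.

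*Il6ra*, the interleukin-6 binding chain, rose in both genotypes. It read 41.01, 41.4 and 42.4 CPM in WT PBS and 137.5, 90.8 and 112.2 CPM in WT LPS, and 33.9, 34.8 and 38.05 CPM in Adm+/- PBS and 99.2, 74.2 and 91.2 CPM in Adm+/- LPS. All 6 LPS lungs lay above all 6 PBS lungs. The rise was 1.45 log2 units in WT lungs (SE 0.15, adjusted p = 0.000161) and 1.31 in Adm+/- lungs (SE 0.15, adjusted p = 0.000135), and both calls were kept in each of the 12 leave-one-library-out fits. The genes most like *Il6ra* across the 12 libraries were the haematopoietic phosphatase gene *Ptpn6* (r = 0.992) and *Acp5* (r = 0.990). Monocyte and macrophage markers moved with *Il6ra* too: their summed level was 1077 to 1286 CPM in WT PBS, 1661 to 2318 CPM in WT LPS, 1028 to 1258 CPM in Adm+/- PBS and 1684 to 2220 CPM in Adm+/- LPS, with 9 of 11 higher in WT and 8 of 11 in Adm+/- lungs. Their part in the *Il6ra* result, and that of the neutrophil markers, was not tested.

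*Osmr*, the oncostatin M receptor chain, had the largest fold change of the 10 genes in Adm+/- lungs. It read 24.4, 38.3 and 33.8 CPM after PBS and 340.4, 355.6 and 309.5 CPM after LPS, a rise of 3.38 on the log2 scale (SE 0.63, adjusted p = 0.00218), or 10.4-fold, that held in all 12 leave-one-library-out fits. In WT mice it read 40.5, 128.4 and 14.9 CPM after PBS and 225.2, 160.4 and 82.5 CPM after LPS, so that the groups overlapped through WT PBS replicate 4. The WT value was 1.35 (SE 0.58, adjusted p = 0.119), which did not pass the threshold. Without WT PBS replicate 4 it became 2.48 and was called (adjusted p = 0.00603). This same library had the highest *Osm*, *Il6st*, *Socs3* and neutrophil marker values among the WT controls. The genes most like *Osmr* over the 12 libraries were *B4galt1* and *Ttpal* (r = 0.994 for each), and the family gene most like it was *Il6st* (r = 0.973). *Il6st* itself was most like *Fas* and *Nek6* (r = 0.990 for each).

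*Lifr*, the chain for leukemia inhibitory factor, lies near *Osmr* on chromosome 15 (7090614 to 7197489 against 6813577 to 6874969, on the other strand) and stayed in a narrow range. It read 278.6, 324.6 and 216.5 CPM in WT PBS, 285.8, 305.7 and 282.9 CPM in WT LPS, 246.9, 287.3 and 302.2 CPM in Adm+/- PBS, and 269.6, 299.3 and 297.7 CPM in Adm+/- LPS. The log2 fold change after LPS was 0.09 in WT lungs (95% interval -0.21 to 0.39) and 0.05 in Adm+/- lungs (-0.25 to 0.35), neither past the threshold (adjusted p = 0.648 and 0.811), and the sign of each turned when a PBS library that stands apart was left out. Set against this level, the ratio of *Osmr* to *Lifr* per kilobase was 0.129, 0.352 and 0.0612 in WT PBS, 0.701, 0.467 and 0.259 in WT LPS, 0.0878, 0.119 and 0.0994 in Adm+/- PBS, and 1.12, 1.06 and 0.925 in Adm+/- LPS. The Adm+/- LPS lungs thus held about as much *Osmr* as *Lifr* transcript per kilobase, and the other 9 lungs held less *Osmr* than *Lifr*. The ratio of *Il6ra* to *Il6st* per kilobase was 0.285, 0.195 and 0.382 in WT LPS and 0.144, 0.104 and 0.142 in Adm+/- LPS, without overlap. Neither ratio was tested. In this comparison 24.6% of all single genes did not overlap. Neither *Il6ra* nor *Il6st* was called between genotypes after LPS (adjusted p = 0.270 and 0.105 in edgeR).

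**Figure D3:**
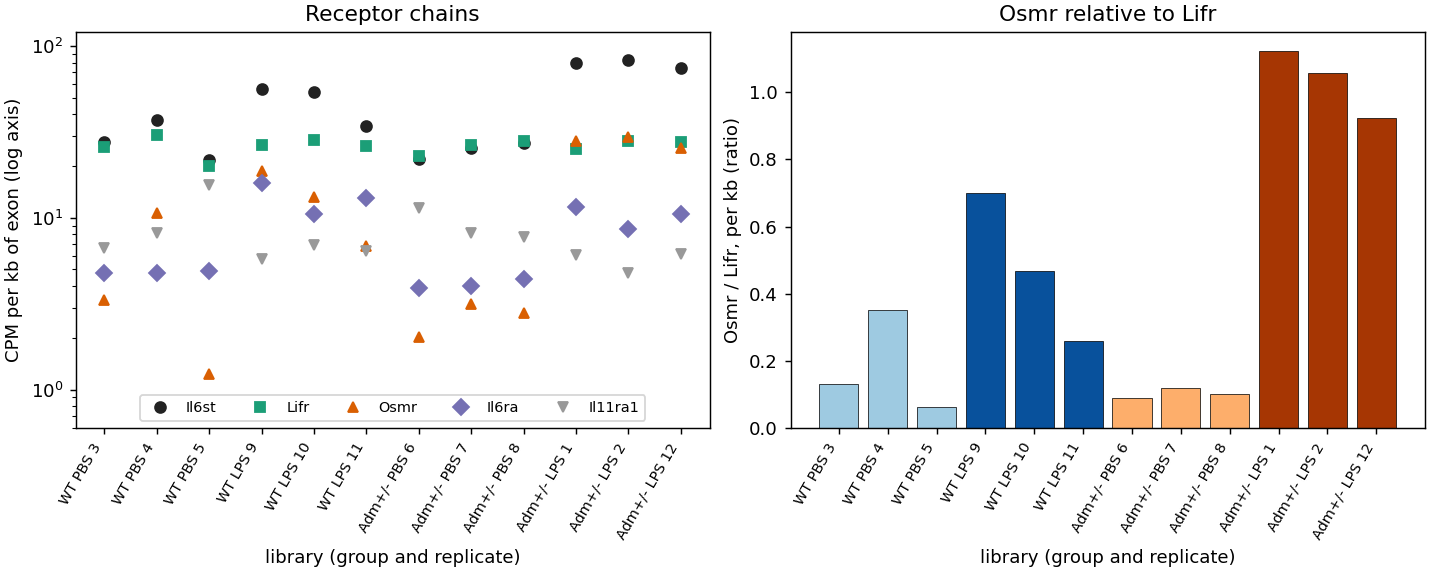
Left, level of the 5 receptor genes per kilobase of exon in each library (CPM per kb, log axis), with 1 symbol per gene; right, ratio of *Osmr* to *Lifr* per kilobase in each library, coloured by group. The ratio is 0.0612 to 0.352 in WT PBS, 0.259 to 0.701 in WT LPS, 0.0878 to 0.119 in Adm+/- PBS and 0.925 to 1.12 in Adm+/- LPS.

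*Il11ra1*, the interleukin-11 receptor chain, read 29.8, 36.4 and 69.1 CPM in WT PBS, 25.7, 31.0 and 28.5 CPM in WT LPS, 50.7, 36.5 and 34.4 CPM in Adm+/- PBS, and 27.0, 21.4 and 27.4 CPM in Adm+/- LPS. The log2 fold changes of -0.66 in WT lungs (adjusted p = 0.0982) and -0.68 in Adm+/- lungs (adjusted p = 0.0769) did not pass the threshold, and the groups overlapped in WT but not in Adm+/- lungs. The Adm+/- fall was called by DESeq2 (adjusted p = 0.0499), with only the 6 libraries of the comparison (0.0128), and without WT PBS replicate 3 (0.0439) or WT PBS replicate 5 (0.0068). The highest *Il11ra1* control of each genotype was the library that stood apart, and without WT PBS replicate 5 the WT value became -0.22, while without WT PBS replicate 3 it became -0.89 and was called (adjusted p = 0.0315). The annotated span of *Il11ra1* overlaps *Galt* on its strand and 5 protein-coding genes on the other, and its near-identical copy *Il11ra2* had 0 counts in all 12 libraries, so that its counts are uncertain. The genes most like it were *Upf3a* (r = 0.995) and *Ccdc61* (r = 0.993). For *Lifr* they were *Zfp763* (0.964) and *Bbs5* (0.960), for *Clcf1* *Frmd4b* (0.963) and *Prr36* (0.961), and for *Lif* *5730522E02Rik* (0.839) and *Sec31a* (0.793).

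The genotypes were then compared with each other. In PBS lungs 0 of the 10 genes passed the threshold between genotypes (background 0%; 0 of the 10 and 344 of all genes had an unadjusted p under 0.05 in edgeR, and DESeq2 and limma-voom also called 0 of the 10). The 3 lungs of each genotype did not overlap for 3 of the 10, against 4.99% of all genes: *Il6ra*, *Lif* and *Il11*. For *Il11* the nearest lungs held 4 counts each, at 0.155 CPM in WT PBS replicate 3 and 0.159 CPM in Adm+/- PBS replicate 8. At counts this low the separation rests on library scaling. The log2 differences, Adm+/- against WT, were -0.22 (adjusted p = 0.999) for *Il6ra*, 0.51 for *Lif* and 0.84 for *Il11*, with the same adjusted p.

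In LPS lungs *Il11* was lower in Adm+/- than in WT lungs (log2 fold change -2.08, SE 0.41, adjusted p = 0.0264), with no overlap between the lungs. In the same comparison 6 of the 7 skeletal muscle markers and 3 of the 6 squamous markers tested were also called lower (median log2 fold changes -6.13 and -6.16), and their part in the *Il11* result was not tested. No other gene of the 10 was called, against 0.327% of all genes higher and 1.72% lower in this comparison, and the *Il11* call was lost in 5 of the 12 leave-one-library-out fits (without WT LPS replicate 11, Adm+/- PBS replicate 7, or Adm+/- LPS replicate 1, 2 or 12), with values from -2.35 to -1.85. For 4 of the 10 genes the lungs did not overlap between the genotypes after LPS (24.6% of all genes), *Il11* and 3 that were higher in Adm+/- lungs. For *Il6* the log2 difference was 2.49 (SE 0.61, adjusted p = 0.0625), for *Il6st* 0.72 (SE 0.21, adjusted p = 0.105) and for *Osmr* 1.10 (SE 0.58, adjusted p = 0.442). These 3 did not pass in edgeR with all libraries. *Il6* and *Il6st* were called by DESeq2 (adjusted p = 0.0144 and 0.0224), by edgeR without WT PBS replicate 5 (0.0349 and 0.0458) and by edgeR without WT PBS replicate 5 and Adm+/- PBS replicate 6 (0.0385 and 0.0483), and *Il6* also without WT PBS replicate 3 (0.0419). *Il6ra* lay the other way at -0.36 (adjusted p = 0.270) with overlapping groups.

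The difference in LPS response between genotypes, the interaction of genotype and treatment, was past the threshold for 0 of the 10 genes (background 0.145%; 3 of the 10 and 1247 of all genes had an unadjusted p under 0.05 in edgeR, and DESeq2 and limma-voom each called 0 of the 10). *Il11* came closest, with a lower response in Adm+/- lungs (log2 difference -2.92, 95% interval -4.35 to -1.50, adjusted p = 0.176). The log2 difference was 0.93 for *Il6st* (0.28 to 1.57, adjusted p = 0.416) and 2.03 for *Osmr* (0.23 to 3.83, adjusted p = 0.548), and without WT PBS replicate 4 it was 0.90 for *Osmr*. For *Il6* it was 1.83 (-0.56 to 4.21, adjusted p = 0.796) and became -0.17 without WT PBS replicate 3. For *Osm* it was 0.89 (-0.61 to 2.39), with 0.022 without WT PBS replicate 4, and for *Il6ra* -0.14 (-0.60 to 0.32). A gene called in Adm+/- lungs alone, such as *Osmr* or *Il6*, is therefore not shown to respond differently in WT lungs.

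**Figure D4:**
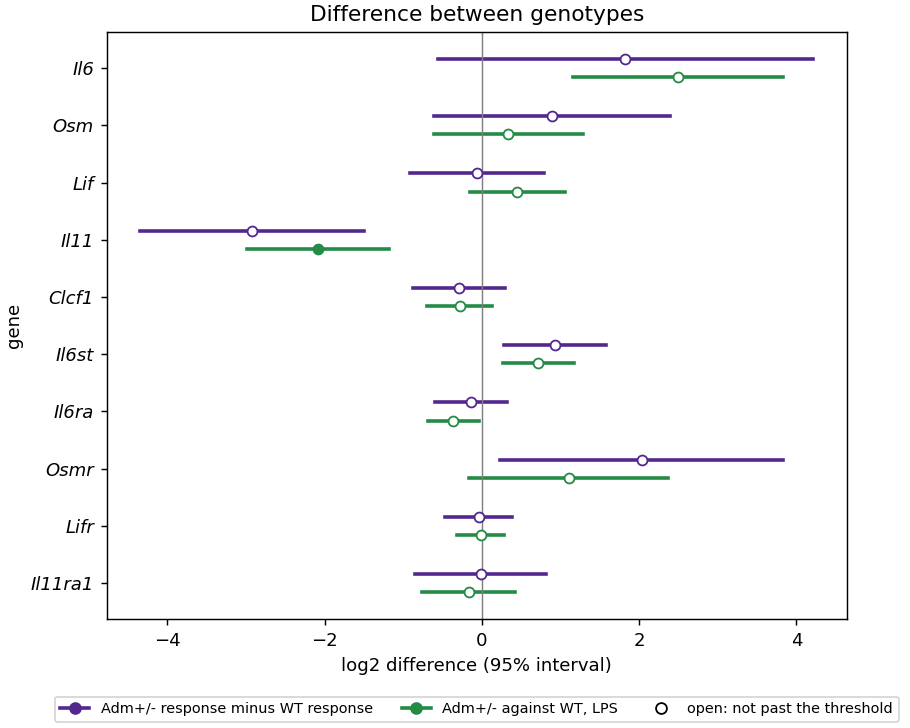
Difference between genotypes for each family gene on the log2 scale (horizontal axis) with 95% intervals: the Adm+/- LPS response minus the WT response (purple), and Adm+/- against WT after LPS (green). Only *Il11* after LPS is filled, which marks a call past the threshold, at -2.08.

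Of 9 other cytokines and receptors of the family that were tested, 2 rose in WT lungs (background 10.5%), and 4 rose and 1 fell in Adm+/- lungs (background 12.8% and 12.2%). *Ebi3* and *Il27*, the subunits of interleukin-27, rose in both genotypes, while *Il31ra* and *Cntfr* rose and *Ctf1*, which encodes cardiotrophin-1, fell in Adm+/- lungs. The *Ctf1* call was lost without WT LPS replicate 10 or 11, Adm+/- PBS replicate 6 or 7, or Adm+/- LPS replicate 1, 2 or 12. *Ebi3* rose by 2.59 in WT (adjusted p = 0.000885) and 3.18 in Adm+/- lungs (adjusted p = 0.000159) on the log2 scale. *Cntfr* rose by 1.03 in Adm+/- lungs (adjusted p = 0.0289) and its value in WT lungs was 0.82 (adjusted p = 0.0861).

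Of 10 genes for kinases and adaptors of the pathway, 3 rose in WT lungs (*Jak1*, *Jak2* and *Stat3*), the same 3 and *Gab2* rose in Adm+/- lungs, and none fell (medians 0.41 and 0.42; background 10.5% higher in WT and 12.8% in Adm+/- lungs). The WT count was 1 without WT PBS replicate 5 or WT LPS replicate 9, 4 without WT LPS replicate 11 and 2 or 3 without any other library, and the Adm+/- count stayed at 4. *Stat3* read 140.1, 322.3 and 171.1 CPM in WT PBS, 450.0, 411.2 and 281.2 CPM in WT LPS, 149.5, 157.4 and 143.0 CPM in Adm+/- PBS, and 540.6, 535.3 and 516.9 CPM in Adm+/- LPS. The log2 rise of *Stat3* was 0.85 in WT lungs (adjusted p = 0.0392) against 1.82 in Adm+/- lungs (adjusted p = 0.000528), and that of *Jak1* was 0.51 (adjusted p = 0.0226) and 0.98 (adjusted p = 0.000384).

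Of 7 feedback inhibitors, *Socs3* and *Ptpn6* rose and *Socs1* fell in WT lungs, while *Socs3*, *Socs2*, *Ptpn2* and *Ptpn6* rose and *Pias3* fell in Adm+/- lungs (medians 0.08 and 0.72; background 10.5% higher and 7.09% lower in WT, 12.8% and 12.2% in Adm+/- lungs). The count of WT rises was 1 without WT PBS replicate 3 or 5 or WT LPS replicate 9 or 10, the count of WT falls was 0 without WT LPS replicate 9, and the Adm+/- counts stayed the same in the 12 leave-one-library-out fits. *Socs3*, the inhibitor that binds gp130, read 24.2, 90.5 and 30.7 CPM in WT PBS, 218.3, 148.7 and 72.7 CPM in WT LPS, 26.9, 23.6 and 22.1 CPM in Adm+/- PBS, and 333.6, 299.0 and 315.4 CPM in Adm+/- LPS. It rose by 1.5975 in WT (adjusted p = 0.0305) and 3.71 in Adm+/- lungs (adjusted p = 0.000322), with a log2 difference between genotypes of 2.11 (95% interval 0.70 to 3.52, adjusted p = 0.403). *Socs2* rose by 0.72 in Adm+/- lungs (adjusted p = 0.00497), against a value of 0.08 in WT lungs (adjusted p = 0.719). Of 4 genes of receptor shedding, which frees soluble *Il6ra* protein, *Rhbdf2* alone passed the threshold, in both genotypes (log2 fold change 0.51 in WT, close to the minimum of 0.5, and 1.03 in Adm+/- lungs). The WT call was lost without WT PBS replicate 3 or 4, WT LPS replicate 9 or 10, Adm+/- PBS replicate 7 or Adm+/- LPS replicate 2. The protease gene *Adam17* had values of 0.16 (adjusted p = 0.213) and 0.22 (adjusted p = 0.0806), with *Adam10* at -0.07 in both.

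Of 6 genes that govern the stability of *Il6* mRNA, *Zc3h12a* and *Zfp36* rose in WT lungs and *Zc3h12a*, *Zfp36* and *Arid5a* rose in Adm+/- lungs (medians 0.40 and 0.90; background 10.5% and 12.8% higher). The WT count was 1 without WT LPS replicate 9. *Zc3h12a* encodes Regnase-1, a nuclease that degrades *Il6* mRNA, and it rose by 1.74 in WT (adjusted p = 0.0023) and 3.03 in Adm+/- lungs (adjusted p = 7.9e-05). *Arid5a* encodes a protein that stabilises *Il6* mRNA. It read 42.5, 69.5 and 59.0 CPM in WT PBS, 76.2, 65.3 and 44.2 CPM in WT LPS, 53.3, 45.1 and 48.1 CPM in Adm+/- PBS, and 136.1, 121.1 and 109.1 CPM in Adm+/- LPS. *Arid5a* was called between genotypes after LPS, higher in Adm+/- lungs by 0.98 log2 units (SE 0.21, adjusted p = 0.0350). The list had no such call without WT LPS replicate 10 or 11, Adm+/- PBS replicate 7 or 8 or Adm+/- LPS replicate 1, 2 or 12, and 2 without WT LPS replicate 9. The *Arid5a* interaction was not past the threshold (log2 difference 1.20, adjusted p = 0.239). *Rc3h1* and *Zfp36l1*, the most abundant of the list by mean CPM over the 12 libraries, did not pass in either genotype. Their log2 fold changes were 0.44 and 0.08 in WT, and 0.47 and 0.21 in Adm+/- lungs.

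Of 20 genes known to be induced through gp130, many of which other inflammatory signals induce as well, 14 rose in WT lungs and 18 in Adm+/- lungs (background 10.5% and 12.8%), and none fell. Their median log2 fold change was 1.46 in WT and 2.67 in Adm+/- lungs, against 0.01 and -0.01 for all genes, and 0 were called by edgeR for the difference between genotypes (median of the log2 differences 1.25; 13 of 20 had an unadjusted p under 0.05, and DESeq2 called 1). *Hp*, the acute phase protein haptoglobin, rose by 1.92 (adjusted p = 0.00123) and 3.15 (adjusted p = 7.12e-05). *Saa3*, serum amyloid A3, read 1.24, 38.1 and 1.61 CPM in WT PBS, 1193, 933.7 and 313.3 CPM in WT LPS, 1.58, 1.05 and 0.835 CPM in Adm+/- PBS, and 1572, 1329.7 and 1561 CPM in Adm+/- LPS, a rise of 5.90 in WT (adjusted p = 0.00408) and 10.36 in Adm+/- lungs (adjusted p = 0.000294). The control that was high for *Osmr*, WT PBS replicate 4, was again the highest of its group. The WT count was less firm, at 7 of 20 without WT LPS replicate 9, 10 of 20 without WT PBS replicate 5 and 12 of 20 without both WT PBS replicate 4 and WT LPS replicate 9, and the Adm+/- count stayed at 18 or 19 in the 12 leave-one-library-out fits. The neutrophil markers given above rose with these genes, and their part was not tested.

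**Figure D5:**
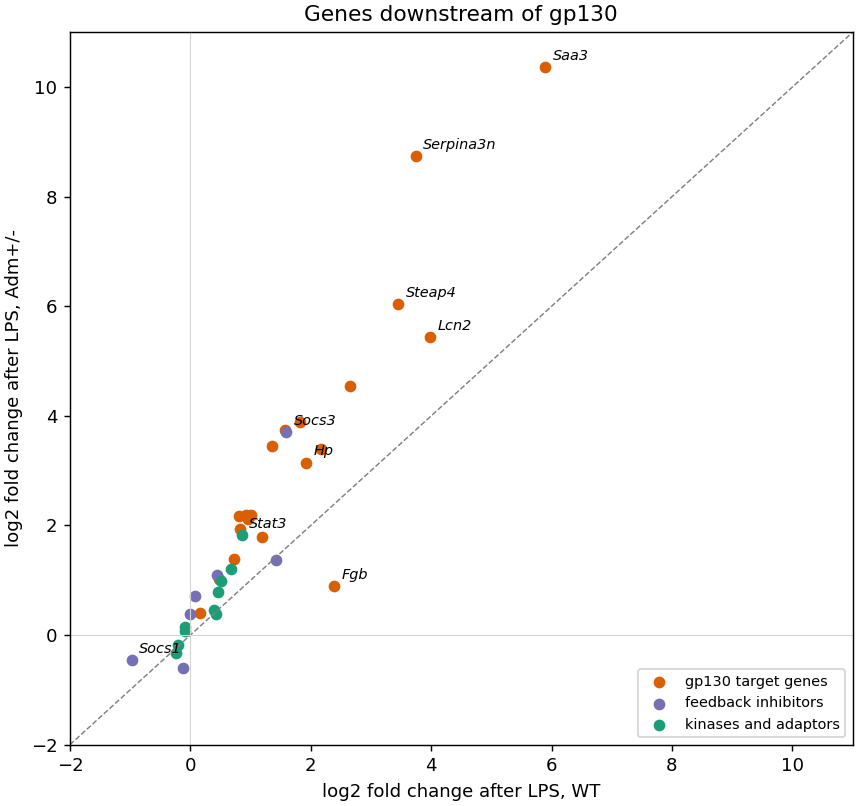
Log2 fold change after LPS in WT (horizontal axis) and Adm+/- lungs (vertical axis) for gp130 target genes, feedback inhibitors, and kinases and adaptors; each point is a gene and the dashed line marks equal change. *Saa3* lies at 5.90 and 10.36 and *Socs3* at 1.5975 and 3.71, above the line, and none of the plotted genes was past the threshold for the difference between genotypes in edgeR.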

How the data were processed

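Bulk RNA-seq of 12 whole lungs was analysed, 3 mice in each of 4 groups taken from the labels. The authors trimmed reads with Trim Galore, aligned them to mm10 with HISAT2 and used featureCounts with a Gencode annotation. The values they deposited are raw counts per gene. The library kit keeps strand, while the strand setting of the counting and the Gencode release are not given in the sources used here.

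From these counts, protein-coding genes passing filterByExpr were fitted with edgeR's quasi-likelihood test (edgeR 4.0.16, R 4.3.3), with TMM scaling, 1 coefficient per group over all 12 libraries (8 residual degrees of freedom) and Benjamini-Hochberg adjustment over 15885 genes. The 5 comparisons were LPS against PBS in each genotype, genotype in each treatment, and their interaction. Alternatives used RLE factors, DESeq2 1.42.0, limma 3.58.1 (voom, and treat at 0.5), other filters, the 6 libraries of a comparison, and fits leaving out libraries. CPM uses TMM-scaled totals, and CPM per kb merged exon lengths of Gencode M21 (mm10), which held 99.7% of all gene IDs. The fits were tested on simulated data. No library pair was identical. Depth limits the precision of scarce genes: 3 counts equal 0.0925 to 0.185 CPM.

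The 10 genes and the gene lists were chosen with earlier results of these data known. Named were all 10 genes, the 2 most abundant genes of each list with *Stat3*, *Socs3*, *Adam17*, *Zc3h12a* and *Cntfr*, and for each of the 10 genes with a mean of at least 0.5 CPM the 2 genes of most similar log2 CPM. Other list members were named after their values were seen, where few passed. A result on 1 list member is not reported here.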

Additional observations from a re-analysis of the deposited data

Results flagged for a closer look

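In edgeR, 2 of the 7 skeletal muscle markers given beside *Il11* passed the threshold for a difference in LPS response between genotypes. *Mylpf*, a myosin light chain gene, had a log2 fold change after LPS of 6.27 in WT and 0.74 in Adm+/- lungs, a difference of -5.53 (adjusted p = 0.00521). *Tnnt3*, a troponin gene, had 5.07 and 0.61, a difference of -4.46 (adjusted p = 0.0286).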

How the results depend on the processing

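No paired analysis was possible because the labels give no litter or other matching of mice between groups. In WT lungs 4 of the 10 genes passed the threshold after LPS. This count was 2 with voom and treat at 0.5, with only the 6 libraries of the comparison, and without the pair of PBS libraries that stood apart (WT 5 and Adm+/- 6), each time *Il11* and *Il6ra*, and 2 to 5 when 1 library was left out. In Adm+/- lungs the count of 6 ranged from 4 to 7. It was 4 with voom and treat at 0.5, where *Il6* and *Clcf1* were not called. Between genotypes after LPS, the count of 1 was 3 with DESeq2 and without that pair, 0 with treat at 0.5, with the 6 libraries alone and with at least 1 CPM required in 3 libraries (a filter that drops *Il6* and *Il11*), and 0 to 3 when 1 library was left out. The counts in PBS and for the difference in response stayed at 0 in all alternatives that gave a value. The causes were not tested. Over all genes, 2791 were called in WT lungs (542 with treat, 1142 from 6 libraries), 3968 in Adm+/- lungs (1139 with treat), 325 between genotypes after LPS (803 with DESeq2, 79 with treat) and 23 for the difference (168 with DESeq2, 1 with voom, 0 with treat).

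Signs turned only for values that were not past the threshold. With all annotated genes, the difference in response of *Il11ra1* was 0.011 and the genotype value of *Clcf1* in PBS -0.017. Without WT PBS replicate 5 and Adm+/- PBS replicate 6, *Lifr* became -0.052 in WT, -0.028 in Adm+/- lungs, 0.024 for the difference and -0.028 for genotype in PBS, and *Il11ra1* 0.10 for genotype in PBS. Without WT PBS replicate 4 and WT LPS replicate 9, an alternative chosen after seeing the data, *Il6* in WT became -0.16, the differences 0.030 for *Il6ra*, 0.04 for *Lif* and 0.05 for *Il11ra1*, and the genotype values in PBS 0.01 for *Il6st*, 0.31 for *Osm*, 0.21 for *Osmr* and -0.08 for *Clcf1*. Over these fits and those without 1 library, the ranges that crossed 0 were those of *Il6* (-0.16 to 2.54 in WT), of *Lifr* (-0.052 to 0.25 in WT, -0.037 to 0.11 in Adm+/-, -0.19 to 0.11 for the difference, -0.11 to 0.17 for genotype in PBS and -0.036 to 0.036 in LPS), of the differences of *Il6* (-0.17 to 2.53), *Il6ra* (-0.28 to 0.030), *Lif* (-0.27 to 0.17) and *Il11ra1* (-0.45 to 0.21), and of genotype in PBS of *Il6st* (-0.38 to 0.013), *Osm* (-0.96 to 0.32), *Osmr* (-1.38 to 0.21), *Il11ra1* (-0.38 to 0.29) and *Clcf1* (-0.082 to 0.14).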
